A study of Mus musculus with 93 samples.

Results

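Among the 24514 gene symbols of the count table, 5 encoding platelet-derived growth factor (PDGF) receptors and ligands were followed: the receptors Pdgfra and Pdgfrb and the ligands Pdgfa, Pdgfb and Pdgfc. They were chosen by name, and all 5 were present. RNA was sequenced from 93 wells of 10 FACS-isolated mouse cells carrying Hcn4-GFP, Tbx1-Cre and Ai9. GFP reports Hcn4 expression in the first heart field (FHF), whereas RFP is the lasting Ai9 label of cells whose ancestors expressed Tbx1, a gene of the second heart field (SHF) and pharyngeal region, so RFP+ describes lineage history rather than present Tbx1 expression. The groups were in vivo GFP+ cells (5 wells) and in vivo RFP+ cells (4 wells) from embryos carrying all 3 alleles, and in vitro GFP+ cells (38 wells) and in vitro RFP+ cells (46 wells) from spheroids at day 5.5 of differentiation, grown from 1 embryonic stem cell line derived from blastocysts with the same alleles. The sample titles place the embryos at E8.5, whereas the protocol gives E7.75. No reporter-free control was analysed here, and wells were not assigned to embryos or to differentiation runs, so n counts wells and the spread between them may be partly technical.

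PDGF ligands are secreted dimers that bind receptor tyrosine kinases on neighbouring cells. PDGF-A and PDGF-C signal mainly through PDGFRα, and PDGF-B through PDGFRβ and also PDGFRα. Ligand binding pairs the receptors, which phosphorylate each other and recruit PI3-kinase, phospholipase C-γ and adaptors that lead to RAS-ERK and AKT signalling. In the gastrulating embryo Pdgfra is a widely used surface marker of mesoderm, including cardiac mesoderm, and it is later found in mesenchyme, whereas Pdgfrb is best known from the mural cells that coat vessels. Pdgfa is typically made by epithelia next to Pdgfra-bearing mesenchyme, and Pdgfb by endothelium.

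Total counts were 712732 to 2525460 in the in vivo GFP+ libraries, 1246546 to 1479957 in the in vivo RFP+ libraries, 445071 to 5658882 in the in vitro RFP+ libraries and 828193 to 4371849 in the in vitro GFP+ libraries, apart from well C9 with 6288. In vivo GFP+ libraries held reads of 6189 to 8302 genes and in vivo RFP+ libraries of 10263 to 13052. In vitro RFP+ libraries held reads of 11434 to 13880 genes and in vitro GFP+ libraries without C9 of 12837 to 14671. The in vivo GFP+ libraries thus held the fewest genes apart from C9. The part of this in the genes without reads there, and in their differences from the other groups, was not tested. Levels are given as CPM, the counts of a gene per 1000000 counts of its library, after TMM scaling across all libraries. The labels were checked on the reporter genes: mean Hcn4 was 14.9 CPM in vivo and 7.36 in vitro in GFP+ cells against 0.358 and 0.445 in RFP+ cells, although wells A12 and E12 of the in vivo GFP+ group held 1 Hcn4 read each. Tbx1 was read in 3 of 4 in vivo and 41 of 46 in vitro RFP+ wells, and in 0 of 5 and 2 of 38 GFP+ wells. The summed CPM of 8 cardiomyocyte genes was 15695 to 43959 in in vivo GFP+ wells and 1094 to 1999 in in vivo RFP+ wells, with medians of 32.8 and 54.1 in in vitro GFP+ and RFP+ wells. In vitro RFP+ cells were in plate columns 1 to 6 and in vitro GFP+ cells in columns 7 to 11, so that an effect of the column cannot be told apart from the in vitro difference. The embryo GFP+ wells and the embryo RFP+ wells F12 and G12 shared column 12, and the embryo RFP+ wells G11 and H11 shared column 11 with in vitro GFP+ cells. In wells of sorted cells, fewer cells that express a gene and less RNA per cell cannot be told apart.

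Pdgfra was the only one of the 5 genes with reads in all 93 wells, and the order of its population means was opposite in embryos and spheroids. In vitro it was 3.09-fold higher in RFP+ than in GFP+ cells. In vivo the mean was higher in GFP+ cells, but 1 well went against the rest and the difference did not pass the test over all genes. The gene (ENSMUSG00000029231.15) spans chr5:75152292-75198215 on the plus strand of GRCm38, the assembly that mm10 also names, and encodes PDGFRα. Of the 10024 bases in its exons, 652 overlap exons of Gm42802, Gm42803 and Mir7025.

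In the in vivo GFP+ wells Pdgfra stood at 35.5 CPM in A12, 183 in B12, 193 in C12, 315 in D12 and 639 in E12 (273 ± 227 CPM, SD, n = 5). In the in vivo RFP+ wells it stood at 61.9 in F12, 66.1 in G11, 98.8 in G12 and 125 in H11 (87.9 ± 29.6 CPM, SD, n = 4). Thus 4 of 5 GFP+ wells lay above every RFP+ well, and A12 lay below all of them. The log2 fold change of RFP+ over GFP+ cells was -1.70 ± 0.67 (SE), with an edgeR adjusted p of 0.189 over the 8503 genes tested, and the exact two-sided permutation test of log2 CPM gave p = 0.19. Without A12 it was -1.99 ± 0.49 with an edgeR adjusted p of 0.0248, and without E12, the highest well, it was -1.09 ± 0.63 with an edgeR adjusted p of 0.449 and a GFP+ mean of 182 CPM. Well A12 also held the only in vivo GFP+ reads of Pdgfc and Kit, and the highest neural crest marker sum of that group (189 CPM, all from 1 of 6 genes), while its cardiomyocyte sum of 23115 CPM lay within the range of the other GFP+ wells. The part of A12's makeup in the result was not tested.

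In vitro, Pdgfra ranged from 4.43 to 78.5 CPM in GFP+ wells (median 36.2, mean 36.7 ± 19.5, SD, n = 38) and from 55.2 to 170 CPM in RFP+ wells (median 110, mean 113 ± 27.3, SD, n = 46). Of the GFP+ wells, 31 lay below every RFP+ well, and 42 RFP+ wells lay above every GFP+ well. In the shallow well C9 a single Pdgfra read counted as 73.3 CPM. The log2 fold change was 1.63 ± 0.13 (SE), with an edgeR adjusted p of 4.5e-21. All 3 genes of the family that could be tested in this comparison were called at an adjusted p under 0.1, but so were 77.9% of the 9940 genes tested. A call by itself therefore sets a gene little apart in this comparison. The change ran from 1.60 to 1.68 on the log2 scale over 11 other settings. GFP+ means by plate column lay between 30.4 and 40.4 CPM and RFP+ means between 106 and 121 CPM. Summed markers of other mesenchymal and mesodermal cells were also higher in in vitro RFP+ wells. Their medians in RFP+ and GFP+ wells were 158 and 16.1 CPM for paraxial and pharyngeal mesoderm (5 of 5 tested genes higher), 285 and 70.3 CPM for neural crest (1 of 2 higher and 1 lower), and 91.3 and 23.4 CPM for nascent mesoderm (2 of 2 higher). The 6 extraembryonic endoderm genes had medians of 132 CPM in RFP+ and 11.4 CPM in GFP+ wells in vitro, and of 137 and 489 CPM in vivo. Only 1 of these 6, Dab2, could be tested in either source. The part of all these lists in the Pdgfra and Pdgfrb results was not tested.

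**Figure D1:**
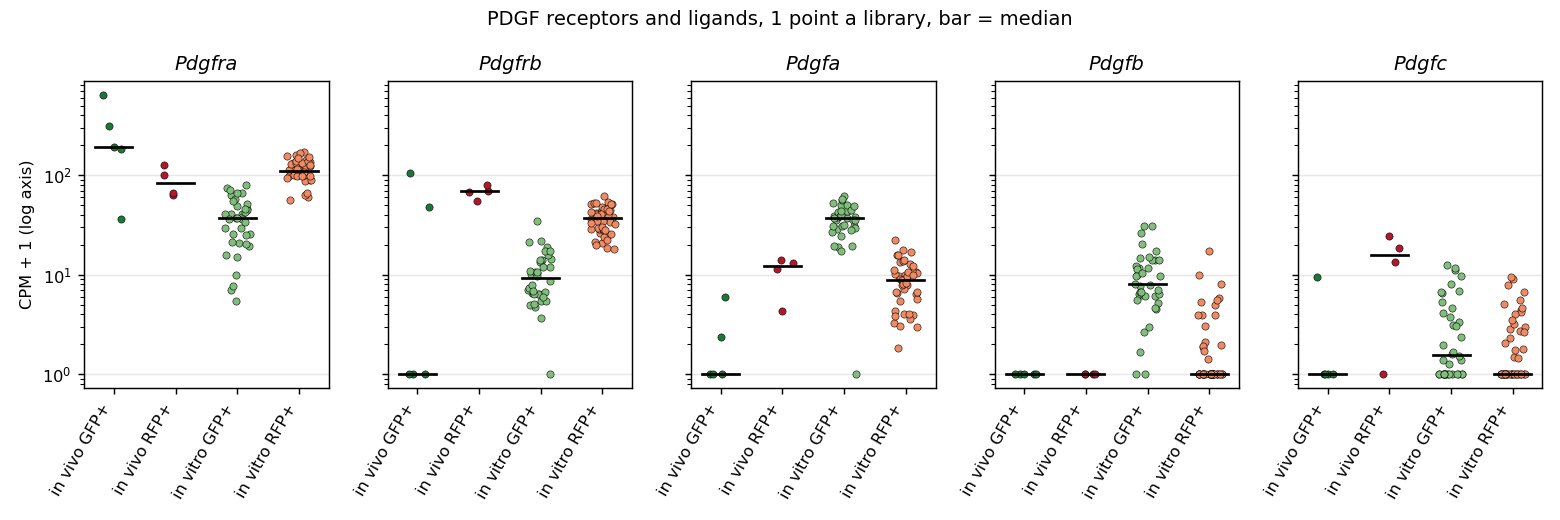
Level of each PDGF receptor and ligand in each of the 93 libraries, as CPM + 1 on a log axis, so that wells with no reads sit at the bottom, with a bar at each group's median. For Pdgfra, 4 of 5 in vivo GFP+ wells lie above every well of the other groups, and 42 of 46 in vitro RFP+ wells above every in vitro GFP+ well. Pdgfa is highest in in vitro GFP+ wells, and Pdgfb has no reads in any in vivo well.

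Whether the change between RFP+ and GFP+ cells differed between the sources was tested, which does not test the sign of either change. The measure was the difference of the separate in vivo and in vitro log2 fold changes over their combined error. It was 3.33 ± 0.68 (SE) for Pdgfra, with p = 0.00175 (t distribution with 7 degrees of freedom) and an adjusted p of 0.0528 over the 8182 genes testable in both sources, of which 5.26% were called. A single edgeR fit of all 4 groups with an interaction term gave 3.29 ± 0.49, but that fit called 54.4% of its 12655 genes. For Pdgfrb the same difference was 0.76 ± 1.69 with an adjusted p of 0.959, an error too wide to compare the sources. The other 3 genes could not be tested in this way, since none of them was testable in both sources.

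The sources were then compared within each population. GFP+ cells in vitro had 6.86-fold less Pdgfra than GFP+ cells in vivo (log2 fold change -2.78 ± 0.33, SE, edgeR adjusted p = 6.4e-10), while 68% of genes were called (48.3% higher and 19.7% lower). The median log2 fold change over all genes was 0.67, with 5710 genes called higher and 2326 lower in vitro, and 0.22 with DESeq2 size factors, with 4687 higher and 3473 lower. Under the latter scaling Pdgfra was at -3.29. The 2 groups of GFP+ cells also differed in the cardiomyocyte sums given above, and the part of those genes in the result was not tested. RFP+ cells differed by 0.35 ± 0.19 on the log2 scale between the sources (adjusted p = 0.146), while 42.6% of genes were called (22.5% higher and 20.1% lower). Whether this small difference passed depended on the wells, the scaling and the test. Without H11 it was 0.57 with an edgeR adjusted p of 0.0404, and with total counts 0.40 with an edgeR adjusted p of 0.0885. The exact permutation test of log2 CPM with all wells gave p = 0.0564, adjusted 0.0891 over the pair tests given below.

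Pdgfrb, which encodes PDGFRβ (ENSMUSG00000024620.11, chr18:61045150-61085061, plus strand), was higher in RFP+ cells in vitro and was detected in every RFP+ well of both sources. In embryos its GFP+ wells divided into wells with many reads and wells with none. It stood at 46.7 CPM (108 reads) in B12 and 104 CPM (84 reads) in C12, and at 0 reads in A12, D12 and E12, where 3 counts, taken as the limit a count of 0 allows, would be 3.06, 1.32 and 3.28 CPM. The in vivo RFP+ wells were close together, at 54.6 in F12, 66.8 in G11, 69.2 in G12 and 78.1 CPM in H11 (67.2 ± 9.67 CPM, SD, n = 4). The GFP+ values therefore lay on both sides of the RFP+ values, and the log2 fold change of 1.07 ± 1.68 (SE) had an edgeR adjusted p of 0.904. Without C12 it was 2.47 ± 1.82 with an edgeR adjusted p of 0.591. In vivo, 0 of the 3 testable family members were called, beside 10.1% of all genes tested (6.21% higher and 3.88% lower in RFP+ cells). At an unadjusted edgeR p under 0.05 the count was 1, Pdgfra, but the share of all genes under that p is not given here. DESeq2 also called 0, beside 1936 of the 10967 genes it tested, with an adjusted p of 0.119 for Pdgfra.

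In vitro, Pdgfrb ranged from 0 to 34 CPM in GFP+ wells (median 8.19, mean 9.63 ± 6.44, SD, n = 38) and from 17.4 to 61.2 CPM in RFP+ wells (median 36, mean 35.7 ± 10.9, SD, n = 46). Most wells were separated, with 34 of 38 GFP+ wells below every RFP+ well. The log2 fold change was 1.82 ± 0.14 (SE), a 3.54-fold difference with an edgeR adjusted p of 2.2e-21. Both receptors thus moved the same way in spheroids, by amounts whose errors overlap. The mural cell gene sum, taken over 6 genes other than Pdgfrb, had the opposite order, with a median of 255 CPM in GFP+ and 22.1 CPM in RFP+ wells in vitro, and its part in the result was not tested.

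Between the sources, RFP+ cells had 1.90-fold less Pdgfrb in vitro than in vivo (log2 fold change -0.92 ± 0.21, SE, edgeR adjusted p = 0.000312). The 4 embryo wells overlapped the spheroid wells by 1 well of each group. For GFP+ cells the log2 fold change was -1.46 ± 0.54 (adjusted p = 0.0179), but it rested on well C12, without which it was -0.22 with an adjusted p of 0.777. The exact permutation test of log2 CPM gave p = 0.334 with a difference of the opposite sign (0.60), since 3 of the 5 embryo wells had no reads.

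Pdgfa encodes the PDGF-A chain (ENSMUSG00000025856.15, chr5:138976014-138997370, minus strand). It had the reverse pattern of the receptors in spheroids: it was 4.58-fold lower in RFP+ than in GFP+ cells. Of its 3119 exon bases, 813 overlap exons of 6330403L08Rik on the other strand. In vitro GFP+ wells ranged from 0 to 60.7 CPM (median 36.4, mean 35.6 ± 12.4, SD, n = 38) and the only well without a read was the shallow C9. In vitro RFP+ wells ranged from 0.826 to 21.1 CPM (median 7.97, mean 8.03 ± 4.43, SD, n = 46). Of the GFP+ wells, 33 lay above every RFP+ well. The log2 fold change was -2.20 ± 0.14 (SE), with an edgeR adjusted p of 2.9e-26, and stayed between -2.23 and -2.14 over 11 other settings. The summed pluripotency genes had the same order, with medians of 148 CPM in GFP+ and 38.6 CPM in RFP+ wells. Of the 5 tested, 4 were lower in RFP+ cells (80%, beside 77.9% of all genes called and 40.1% called lower). The part of these genes in the Pdgfa result and in that of Pdgfb was not tested.

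In embryos Pdgfa was low in both populations, and its order was the other way round. The GFP+ wells held 4 reads in C12 (4.96 CPM), 3 reads in D12 (1.40 CPM) and none in A12, B12 and E12 (1.27 ± 2.15 CPM, SD, n = 5). The RFP+ wells stood at 13.1 CPM in F12, 10.5 in G11, 3.38 in G12 and 12.2 in H11 (9.80 ± 4.41 CPM, SD, n = 4). Only G12 fell among the GFP+ values. The 6 definitive endoderm genes summed to 8.60 to 477 CPM (median 282) in the same RFP+ wells and had no reads in the GFP+ wells, and their part in the result was not tested. Pdgfa was too low for the test over all genes: alone, it gave p = 0.0238 in the exact two-sided permutation test of log2 CPM, where 0.00794 is the smallest p that 5 against 4 wells allow. Without the filter on low counts edgeR gave an adjusted p of 0.302, and DESeq2 gave 0.188. GFP+ cells had far more Pdgfa in vitro than in vivo (log2 fold change 5.15 ± 0.53, SE, edgeR adjusted p = 5.6e-12), and the fitted size rests on 7 reads in all 5 embryo wells. RFP+ cells did not show a difference beyond the spread (-0.30 ± 0.44, adjusted p = 0.629).

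**Figure D2:**
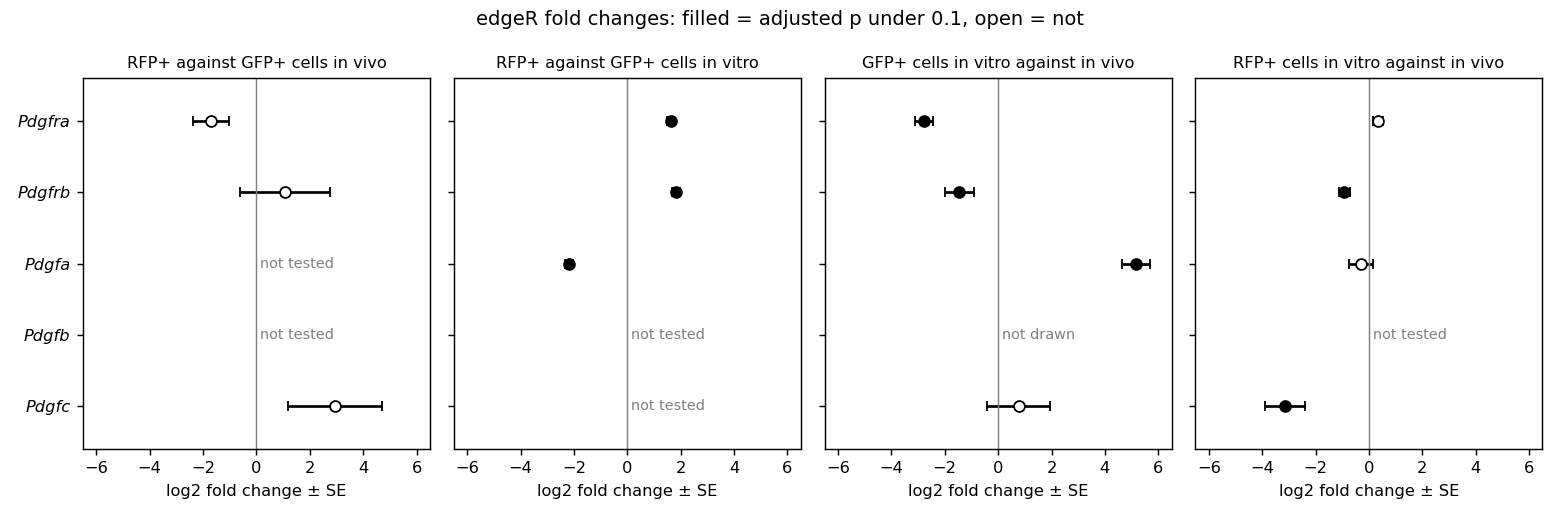
Log2 fold change with its standard error for each gene in the 4 comparisons fitted with edgeR, where filled points have an adjusted p under 0.1 and open points do not. Genes under the filter are marked not tested, and Pdgfb between the sources in GFP+ cells is not drawn because its embryo wells had no reads. Pdgfra is at -1.70 in vivo and 1.63 in vitro, and Pdgfa is at -2.20 in vitro.

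The start regions of Pdgfra and Pdgfa, which lie on the same chromosome and had opposite orders between GFP+ and RFP+ cells in spheroids, are shown for comparison of their composition. Each is the run of 250 bases before a transcription start in RefSeq, GRCm38.p6, read 5′ to 3′ on the gene's strand, with capitals marking GC boxes (GGGCGG on either strand). The Pdgfra window is chr5:75152001-75152250 on the plus strand, and RefSeq lists 2 Pdgfa starts, with windows at chr5:138994282-138994531 and chr5:138994945-138995194 on the minus strand.
Pdgfra: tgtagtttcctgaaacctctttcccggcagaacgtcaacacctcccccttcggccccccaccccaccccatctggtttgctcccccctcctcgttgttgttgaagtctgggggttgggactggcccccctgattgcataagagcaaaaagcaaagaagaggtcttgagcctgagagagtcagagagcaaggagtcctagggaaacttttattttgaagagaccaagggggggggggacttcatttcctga
Pdgfa, first window: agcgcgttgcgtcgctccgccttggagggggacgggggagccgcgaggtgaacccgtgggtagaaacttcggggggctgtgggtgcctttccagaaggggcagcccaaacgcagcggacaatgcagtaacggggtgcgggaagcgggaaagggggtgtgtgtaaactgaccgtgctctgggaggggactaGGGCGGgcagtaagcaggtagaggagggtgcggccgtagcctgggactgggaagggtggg
Pdgfa, second window: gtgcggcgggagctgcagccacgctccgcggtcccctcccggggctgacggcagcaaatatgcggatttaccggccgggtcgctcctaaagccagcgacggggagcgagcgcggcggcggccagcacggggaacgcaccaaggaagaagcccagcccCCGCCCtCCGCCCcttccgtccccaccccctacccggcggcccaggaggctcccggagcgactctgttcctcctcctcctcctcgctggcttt
G and C made up 54.4% of the Pdgfra window and 66.4% and 72.4% of the Pdgfa windows, beside a median of 52.4% over 32851 promoters of the same length. The Pdgfa windows held 1 and 2 GC boxes, and the Pdgfra window held none. A GC box was present in 32.7% of all promoters. The letters TATAAA (12.4% of promoters), CTTTGA of TCF/LEF factors (13.8%) and AGATAA of GATA factors (9.99%) were searched on both strands and were in none of the 3 windows. No window for Pdgfrb or Pdgfb is shown here.

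Pdgfb, the PDGF-B chain of endothelial cells and platelets (ENSMUSG00000000489.7, chr15:79995874-80014977, minus strand), was detected only in spheroids. None of the 9 embryo wells held a read, where 3 counts would be 1.19 to 4.21 CPM. In vitro it was read in 36 of 38 GFP+ wells (0 to 30 CPM, median 7.02, mean 9.27 ± 7.28, SD) and in 17 of 46 RFP+ wells (0 to 16.5 CPM, median 0, mean 1.44 ± 3.06, SD). The in vitro GFP+ mean was at least 3.55-fold higher than the mean 3-count limit of the in vivo GFP+ wells and at least 4.28-fold higher than that of the in vivo RFP+ wells, whereas the in vitro RFP+ mean lay below both limits. Pdgfb fell under the filter in the spheroid comparison, and its permutation test gave p = 1e-05, the smallest that 100000 resamples can give. Without the filter, edgeR gave a log2 fold change of -2.73 ± 0.38 with an adjusted p of 1.2e-09, and DESeq2 gave -2.85 ± 0.39. Pdgfb was thus lower in RFP+ cells in vitro, as Pdgfa was.

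The 8 endothelial genes, none of them Pdgfb, summed to medians of 28.1 CPM in GFP+ and 29.1 CPM in RFP+ wells in vitro. In embryos the sum was 165 to 344 CPM in RFP+ wells and 2.15 to 89.3 CPM in GFP+ wells, where 6 of the 8, Pecam1 and Cdh5 among them, had no reads. Pdgfb itself had no reads in the embryo RFP+ wells that held these endothelial transcripts.

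Pdgfc, a ligand of PDGFRα that is activated by proteolysis (ENSMUSG00000028019.9, chr3:81036416-81214040, plus strand, 147 of its 5089 exon bases shared with Gm16000), was highest in embryo RFP+ cells. The in vivo RFP+ wells stood at 12.4 CPM in F12, 17.6 in G11, 23.6 in G12 and 0 in H11 (13.4 ± 10.0 CPM, SD, n = 4), where 3 counts in H11 would be 2.03 CPM. Among the in vivo GFP+ wells only A12 held reads (8.61 CPM). The 3 RFP+ wells with reads lay above every GFP+ well, but the log2 fold change of 2.94 ± 1.75 (SE) had an edgeR adjusted p of 0.516 and the exact permutation test gave p = 0.0873. In vitro the gene was read in 23 of 38 GFP+ wells (0 to 11.6 CPM, mean 2.40 ± 3.40, SD) and 22 of 46 RFP+ wells (0 to 8.50 CPM, mean 1.48 ± 2.25, SD). These groups were not separated (permutation p = 0.24). RFP+ cells had 8.80-fold less Pdgfc in vitro than in vivo (log2 fold change -3.14 ± 0.75, SE, edgeR adjusted p = 0.000668). In GFP+ cells the same comparison gave 0.77 ± 1.18 (adjusted p = 0.592).

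Because longer transcripts give more reads, levels of different genes were compared per kilobase of exons. The length took all annotated exons of a gene together, 10024 bases for Pdgfra and 5478 for Pdgfrb, and not a single transcript. In embryo GFP+ cells Pdgfra, at 27.3 CPM per kilobase, exceeded Pdgfrb in 5 of 5 wells, with a ratio of the means of 4.95. The ratio was 13.7 without C12 and 2.63 without E12. In embryo RFP+ cells Pdgfra stood at 8.76 and Pdgfrb at 12.3 CPM per kilobase, and Pdgfra was the lower in all 4 wells, with a ratio of 0.715. In CPM without this division Pdgfra was the higher in F12, G12 and H11, so the order in these cells rests on the lengths used. In spheroids Pdgfra was above Pdgfrb in 31 of 38 GFP+ wells (3.66 against 1.76 CPM per kilobase) and in 44 of 46 RFP+ wells (11.3 against 6.51). The balance of receptor and ligand also differed between the spheroid populations. Pdgfa was the most abundant family member per kilobase in in vitro GFP+ cells, at 11.4 CPM per kilobase, and Pdgfra was above it in 4 of 38 of those wells. In CPM without this division their means there were 35.6 for Pdgfa and 36.7 for Pdgfra, so this order too rests on the lengths used. In in vitro RFP+ cells Pdgfra exceeded Pdgfa in 46 of 46 wells, with a ratio of 4.39. Among the ligands of in vitro GFP+ cells, Pdgfa was 5.13 times Pdgfb and 24.3 times Pdgfc per kilobase.

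**Figure D3:**
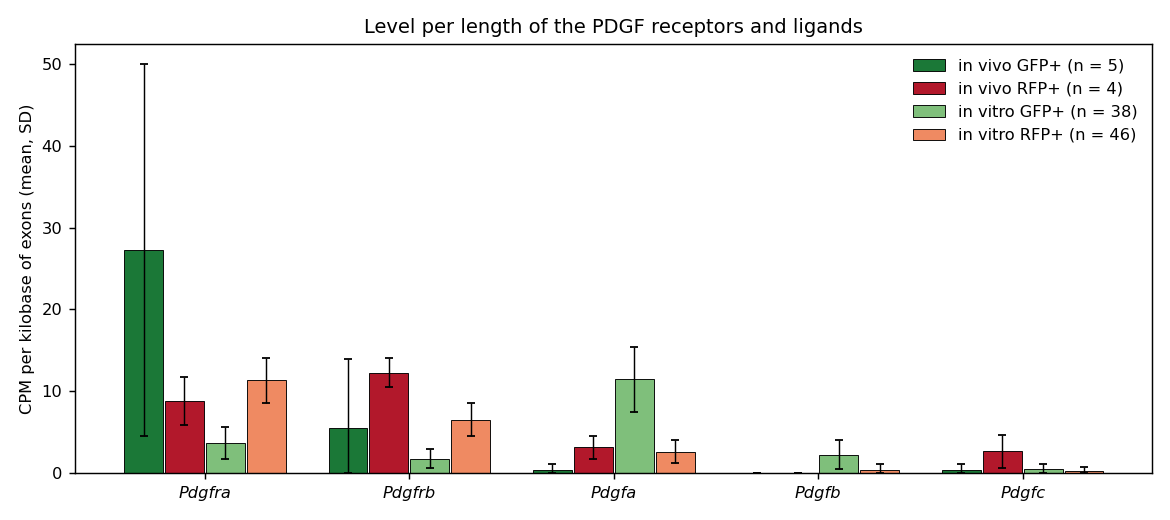
Mean level of each gene in CPM per kilobase of exons in the 4 groups, with bars from 0 and error bars of 1 SD between wells, drawn no lower than 0. In vivo GFP+ cells have the highest Pdgfra (27.3) with the widest spread, in vivo RFP+ cells the highest Pdgfrb (12.3), and in vitro GFP+ cells the highest Pdgfa (11.4).

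Ordered by mean CPM, Pdgfra descended from in vivo GFP+ over in vitro RFP+ and then in vivo RFP+ to in vitro GFP+ cells. For each gene the groups were compared in pairs by two-sided permutation tests of log2 CPM, exact where a group was under 10 wells, giving 30 tests, of which 19 had an adjusted p under 0.1 over the 30. All 3 neighbouring pairs of the Pdgfra order passed (permutation p = 0.00847, 0.0564 and 0.00693, adjusted 0.0149, 0.0891 and 0.0139), although in vivo GFP+ and in vivo RFP+ cells, which are not neighbours in this order, did not. The Pdgfrb order ran from in vivo RFP+ to in vitro RFP+ (p = 3.47e-05, adjusted 0.000104, exact), in vivo GFP+ and in vitro GFP+ cells, of which the last pair was not separated (p = 0.334, exact). For Pdgfa the order was in vitro GFP+, in vivo RFP+, in vitro RFP+ and in vivo GFP+, and the middle pair was not separated (p = 0.452, exact). For Pdgfb only in vitro GFP+ cells stood apart from their neighbour, and for Pdgfc only in vivo RFP+ cells did (p = 0.00645, adjusted 0.0138, exact).

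The spread between wells of 10 cells was set beside the spread that counting reads would give. The latter leaves out PCR amplification and the sampling of 10 cells, so that an excess over it is given as a description. For Pdgfra the coefficient of variation was 52.6% over 37 in vitro GFP+ wells without C9, where counting error would give 13.1%, and 24.1% over in vitro RFP+ wells against 8.08%. In embryo GFP+ wells it was 83.3% against 5.60%. Pdgfrb varied by 63.9% and 30.6% in in vitro GFP+ and RFP+ wells, against 24.9% and 14.4% from counting. Pdgfa had the opposite order, at 30.1% in in vitro GFP+ wells and 55.2% in RFP+ wells, of which counting would give 30.4% in the latter. The Pdgfrb spread of the 4 embryo RFP+ wells, at 14.4%, was near the 10.6% from counting.

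Whether the genes moved together from well to well was examined within each in vitro population, leaving out C9 and summing the neighbouring RFP+ wells of columns 3 and 4, in 9 relations. In GFP+ wells Pdgfra and Pdgfrb had a Pearson's r of 0.418 (permutation p = 0.01, adjusted 0.09, n = 37) and a Spearman's rho of 0.354 (permutation p = 0.032, adjusted 0.144). Without the 2 wells farthest from the median of Pdgfra, r was 0.326. In RFP+ wells the same pair had an r of 0.290 (permutation p = 0.074, adjusted 0.182, n = 39) and a rho of 0.287 (permutation p = 0.078, adjusted 0.173). Pdgfra and Pdgfa had an r of -0.331 in GFP+ wells (permutation p = 0.044, adjusted 0.182, n = 37), a rho of -0.278 (permutation p = 0.096, adjusted 0.173), and an r of -0.406 without the farthest 2. In RFP+ wells this pair had an r of -0.0769 (permutation p = 0.64, adjusted 0.776, n = 39). Of the 9 relations, 1 had an adjusted p under 0.1 by Pearson's r and 0 by Spearman's rho. The wells share plate, depth differences and cell numbers, and the values are descriptions.

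**Figure D4:**
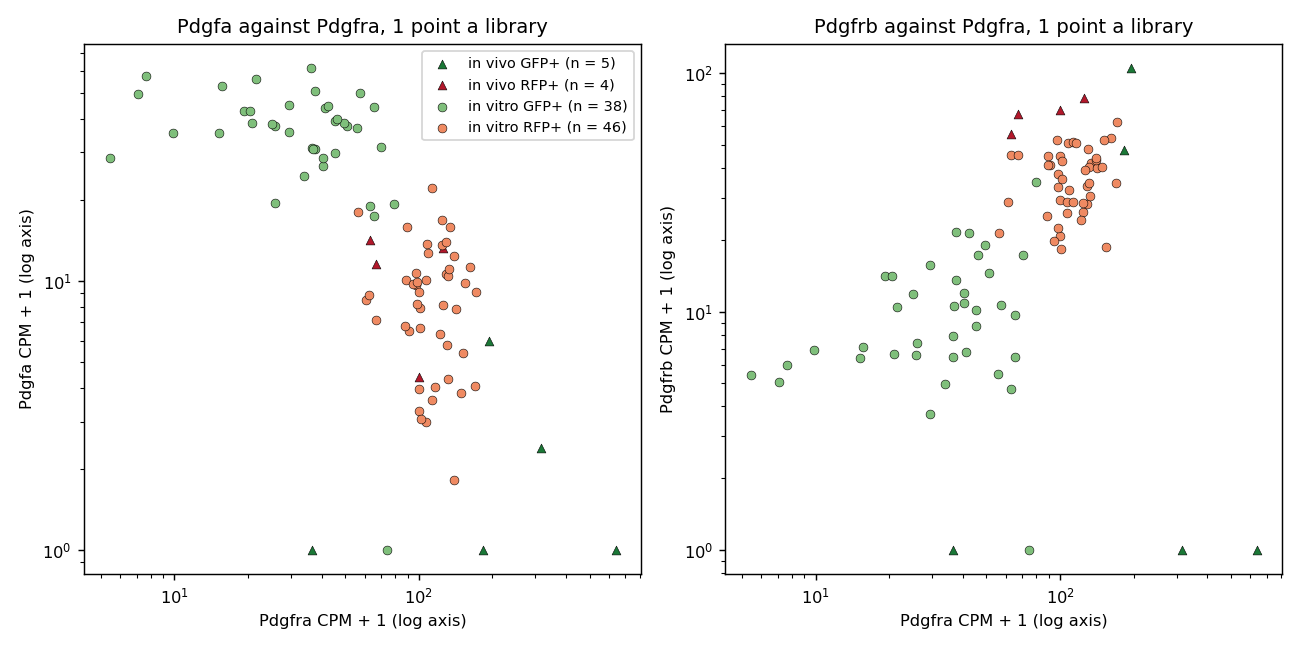
Pdgfa (left) and Pdgfrb (right) against Pdgfra in each library, as CPM + 1 on log axes, with triangles for embryo wells and circles for spheroid wells. In spheroids GFP+ wells combine low Pdgfra with high Pdgfa and RFP+ wells the reverse, and the in vitro GFP+ circle at the bottom of both panels is C9 with 6288 counts.

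The genes most like each member across the 39 in vitro RFP+ libraries were ranked by Pearson's r of log2 CPM over 8416 other genes with a mean of at least 10 CPM, or 8417 for Pdgfa, and their r in the 37 GFP+ libraries is given beside it. For Pdgfra they were Rad51c (r = 0.675, 0.541 in GFP+ wells), Foxc2 (0.628, 0.110), Tecr (0.576, 0.469), Harbi1 (0.573, 0.0949) and Morn2 (0.572, 0.371). For Pdgfrb they were Znrd1as (0.539, 0.0183), Dbi (0.537, 0.200), Gucy1a2 (0.535, -0.00665), Vps54 (0.530, 0.247) and Actn1 (0.527, -0.0776). For Pdgfa they were Slc9a3r1 (0.491, 0.410), Snx30 (0.487, -0.0228), Acot13 (0.483, 0.177), Mapk6 (0.482, 0.0899) and Zfp597 (0.481, -0.0897). These are the highest of many values, and most were small in GFP+ wells. Foxc2 encodes a forkhead factor of paraxial mesoderm and mesenchyme, Rad51c a protein of DNA repair, and Slc9a3r1 a scaffold protein that binds PDGF receptors.

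Pathway genes were counted from a list of 50, which held the remaining ligand, the receptor-like Pdgfrl, ligand processing and binding proteins, receptor-bound adaptors and enzymes, brakes on the receptors, and RAS-ERK and AKT genes. In embryos 38 could be tested, of which 2 were higher and 2 lower in RFP+ cells (10.5%, beside 10.1% of all genes). Their median log2 fold change was 0.49, beside 0.09 for all genes. In spheroids 43 could be tested, of which 20 were higher and 12 lower in RFP+ cells (74.4%, beside 77.9%), with a median of 0.03 beside -0.02 for all genes.

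Among the ligand processing and binding genes, Nrp1, a co-receptor that binds PDGF and VEGF ligands, and Sparc, a matrix protein that binds PDGF-B, were lower in RFP+ cells in both sources. Nrp1 fell by 4.07 on the log2 scale in embryos (SE 0.34, edgeR adjusted p = 2.1e-05), from 549 to 993 CPM in GFP+ wells to 31.6 to 59.7 CPM in RFP+ wells, and by 0.57 in spheroids. Sparc fell by 1.53 in embryos and 1.92 in spheroids. St14, which encodes matriptase, a protease known to cleave PDGF-D, was 8.07-fold lower in RFP+ cells in vitro. In embryos St14 had no reads in GFP+ wells and was read in 3 of 4 RFP+ wells, at up to 16.0 CPM, the other way round. Pcsk5, a proprotein convertase, was 4.31-fold higher in RFP+ cells in vitro. In spheroids 6 genes of this list of 8 could be tested, 1 higher and 3 lower in RFP+ cells (66.7%, beside 77.9% of all genes), and in embryos Nrp1 and Sparc were the 2 called of 4 tested (50%, beside 10.1%).

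Of the receptor-bound adaptors and enzymes, 21 of 23 could be tested in spheroids, and 7 were higher and 8 lower in RFP+ cells (71.4%, beside 77.9% of all genes). The largest changes were in Gab1, an adaptor of receptor tyrosine kinases, lower by 4.24-fold, Pik3cb, a catalytic PI3-kinase subunit, lower by 4.04-fold, and Pik3r1, a regulatory PI3-kinase subunit, higher by 3.86-fold. In embryos 2 of 19 were called, both higher in RFP+ cells (10.5%, beside 10.1%). Slc9a3r1 had reads in 1 of 5 GFP+ wells and stood at 53.2 to 96.2 CPM in the RFP+ wells, and Sos2, an activator of RAS, had reads in 1 of 5 GFP+ wells and stood at 7.73 to 22.2 CPM in the RFP+ wells. Slc9a3r1 was also higher in RFP+ cells in vitro, by 0.38 on the log2 scale.

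Of the RAS-ERK and AKT genes, 9 of 11 were higher and 0 lower in RFP+ cells in vitro, beside 37.8% higher and 40.1% lower over all genes. The median log2 fold change of the list was 0.23. The largest were Mapk3, which encodes ERK1 (1.16 ± 0.07, SE, edgeR adjusted p = 6.5e-29), Map2k1, its activating kinase (0.63 ± 0.08), and Hras (0.50 ± 0.12). In embryos all 11 could be tested and none was called by edgeR at an adjusted p under 0.1, beside 10.1% of all genes. Their median log2 fold change there was 1.00, beside 0.09 for all genes, and those below 0 included Braf (-2.26 ± 0.83) and Nras (-0.86 ± 0.34). Errors were wider than in spheroids (Mapk3 1.35 ± 1.18), so the calls do not show whether the sources differ. Of the brakes, 3 were higher and 1 lower of the 5 tested in spheroids (80%, beside 77.9%), led by Cblb, a ubiquitin ligase of receptor tyrosine kinases (1.39 ± 0.11), Ptpn1 (0.51 ± 0.08) and Acp1 (0.42 ± 0.04), both protein tyrosine phosphatases. None of 4 was called by edgeR in embryos, beside 10.1% of all genes.

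**Figure D5:**
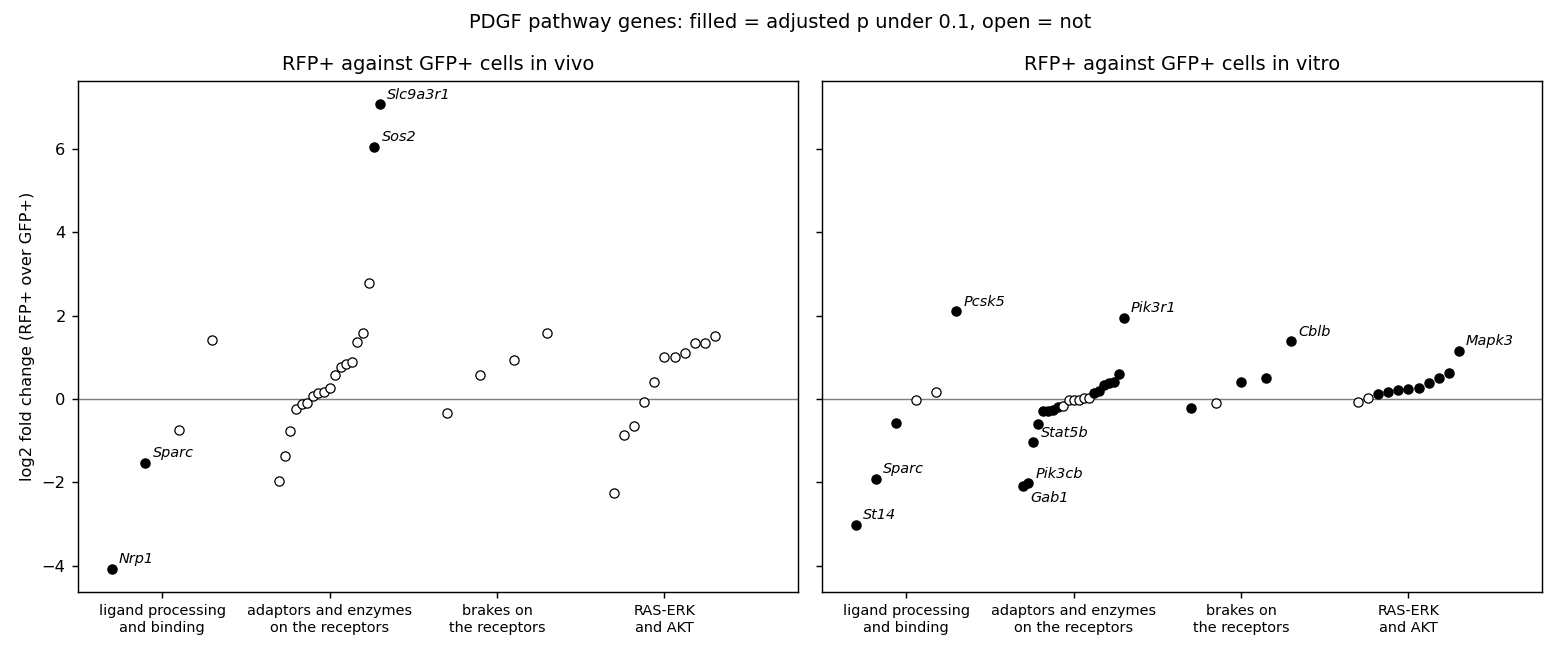
Log2 fold change of RFP+ over GFP+ cells for the tested genes of 4 pathway lists in embryos (left) and spheroids (right), 1 point a gene, filled where the edgeR adjusted p is under 0.1, with names beside called genes of more than 1 on the log2 scale. In spheroids 9 of 11 RAS-ERK and AKT genes are filled above 0, and Nrp1 at -4.07 and Slc9a3r1 at 7.07 mark the range in embryos.

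Relatives of the family were given for comparison. Kit (chr5:75574916-75656722) and Kdr (chr5:75932827-75978458), related receptor tyrosine kinases that lie 377 kb beyond Pdgfra and 276 kb beyond Kit on chromosome 5, were described in the same wells. Kit was read in 1 of 5 embryo GFP+ wells (A12, 51.7 CPM) and stood at 38.7 to 53.9 CPM in all 4 RFP+ wells (edgeR adjusted p = 0.747), and in vitro it was 1.32-fold lower in RFP+ cells. Kdr, the VEGF receptor of endothelium and early mesoderm, was 11.9-fold higher in RFP+ cells in vitro (log2 fold change 3.58 ± 0.34, SE). In embryos Kdr was read in 2 of 5 GFP+ wells, at 14.7 and 16.8 CPM, and ranged from 0.844 to 147 CPM in RFP+ wells (adjusted p = 0.516). Flt1, another VEGF receptor, was called in embryos, with reads in 1 of 5 GFP+ wells and 7.73 to 29.4 CPM in the RFP+ wells (adjusted p = 0.0157). Of the 5 VEGF ligands tested in spheroids, 2 were higher and 2 lower in RFP+ cells (80%, beside 77.9% of all genes): Vegfb and Vegfd by 0.38 each on the log2 scale, and Vegfc at -0.70 and Vegfa at -0.57. Pdgfd, the remaining PDGF ligand, had no reads in embryo GFP+ wells and 0 to 15.3 CPM in RFP+ wells, at least 2.08-fold higher than the mean 3-count limit, and averaged under 1 CPM in both groups of spheroid cells.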

How the data were processed

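GFP+ and RFP+ cells were sorted in wells of 10, and polyadenylated RNA was amplified by template-switching PCR without molecular identifiers. The authors removed low-quality read ends with Trimmomatic 0.36 (quality of at least 35, reads of at least 36 bases), aligned the rest to mm10 with HISAT2 2.0.4 and deposited whole-number counts per gene symbol from featureCounts 1.5.2; the strand setting is not given in the sources used here. Counts were fitted here with edgeR 4.0.16 (TMM, filterByExpr, quasi-likelihood F-test, Benjamini-Hochberg over all genes tested, called at an adjusted p under 0.1) in R 4.3.3, separately for each comparison, and checked on simulated counts. DESeq2 1.42.0, other scalings, filters and left-out libraries were alternatives. Single genes were tested by permutation of log2 CPM (prior count 2, all regroupings or 100000 resamples). Standard errors were derived from the F statistic. Limits of 3 counts for genes without reads cover counting error only and used total counts. The 5 genes, the lists of pathway and marker genes and the tests were chosen with earlier results of these data known. From the pathway lists the text names genes called in both RFP+ against GFP+ comparisons, the 3 called genes with the largest change per comparison and list, and Pdgfd, Kdr and Kit. Exon lengths and positions are from GENCODE M21 (GRCm38), promoter windows from RefSeq GRCm38.p6.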

Additional observations from a re-analysis of the deposited data

Results flagged for a closer look

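The Pdgfra difference between RFP+ and GFP+ cells itself differed between spheroids and embryos, by 3.33 ± 0.68 (SE) on the log2 scale, in a test of that difference (adjusted p = 0.0528 over 8182 genes).

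By Dixon's 95% critical value, 2 of 8 groups of 4 to 10 wells held a well apart from the rest, where chance gives about 1 in 20 groups of continuous values. Both rest on few reads in groups with mostly 0 reads, for which that rate was not made. Pdgfa in C12, the shallowest in vivo GFP+ library, stood at 4.96 CPM (4 reads), 1 read more than D12, a difference within counting error. Pdgfc in A12 stood at 8.61 CPM (8 reads), and the other 4 wells had none, so that any number of reads there would have met the criterion.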

How the results depend on the processing

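Over 192 alternatives for single family members, 187 kept their direction and their side of the threshold, 4 passed it newly, 1 no longer passed it and 0 turned direction. The threshold of 0.05 and the robust fit repeat the main log2 fold change, so they could not turn it. The permutation tests are not counted here, and that of Pdgfrb between the sources in GFP+ cells had the opposite sign (0.60). In embryos the number of members called was 0, and 0 to 1 when each library was left out in turn. The exception was well A12, without which Pdgfra was called. For RFP+ cells between the sources 2 members were called, and 1 under a stricter filter (at least 10 counts in 50% of the libraries), when Pdgfc was no longer tested. For the difference between the sources 1 member was called from separate fits, and 3 (Pdgfra, Pdgfa and Pdgfc) with an interaction term in 1 fit of all groups, which tests 12655 genes in place of 8182 and shares 1 estimate of the spread. That single fit called 54.4% of all its genes, beside 5.26% from the separate fits, so a call in it sets a gene little apart. Pdgfc between the sources in GFP+ cells passed without A12 (5.20, adjusted p = 0.0218), and Pdgfra between the sources in RFP+ cells passed with total counts (0.40, adjusted p = 0.0885). The cause was not tested. Over all genes in embryos, 858 were called, 1936 with DESeq2, 2000 without the filter on low counts and 540 under the stricter filter, and in spheroids 7747, or 13109 without the filter. RFP+ wells of columns 3 and 4 in the same row were nearer to each other (mean chi-square 1.36 to 2.41) than to column 5 (4.33 to 5.94). That test treats PCR reads as independent, so it does not show that these wells are separate samples, and the 46 wells may count shared material. Summing the pairs left 39 and changed no call of a member. No paired analysis was possible because the labels give plate positions and no replicate numbers shared between groups. With plate row as a covariate the in vitro changes were 1.63, 1.87 and -2.23 for Pdgfra, Pdgfrb and Pdgfa. In embryos 3 counts came to 1.19 to 4.21 CPM, so Pdgfa, Pdgfb and Pdgfc were measured near the limit of depth.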
